A study of Caenorhabditis elegans with 60 samples.

Results

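The data describe 57 genes of Caenorhabditis elegans that the study's tables class as CSR-1 targets and whose antisense small RNAs were enriched in an immunoprecipitate (IP) of another Argonaute, WAGO-1. They were chosen by their measured WAGO-1 values from the 3639 CSR-1 class genes of the IP table, so those values are a description here and carry no test. A member had at least 10 parts per 1000000 of the column total (ppm) in the WAGO-1 IP and was at least 2-fold higher there than in the matched input, after a pseudocount of 1. Of the other 3582 CSR-1 class genes, most were present in the IP, since 2530 of the class reached 10 ppm, but not enriched in it. Among WAGO class genes of that table, 223 of 2434 met the same thresholds. The class names are those of the deposited tables.

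Small RNAs of 22 nucleotides that start with guanosine, called 22G-RNAs, are made by RNA-dependent RNA polymerases on mRNA templates in the worm. Those bound by CSR-1 are made against genes expressed in the germline and are known for leaving such genes active, whereas those bound by WAGO-1 in the cytoplasm and by HRDE-1 in the nucleus are known for silencing. HENN-1 methylates the last nucleotide of piRNAs and of some other primary small RNAs, and 22G-RNAs are not known to be its substrates. RDE-1 binds primary small RNAs made from double-stranded RNA and certain microRNAs and starts the making of 22G-RNAs on their targets. The comparisons asked how 22G-RNAs behave when HENN-1 or RDE-1 is missing, and which of them resist oxidation.

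The IP libraries came from whole gravid adults grown for 68 h at 20 C, with 1 library for each IP and each input. The WAGO-1 strain carried wago-1(cmp92), in which GFP and 3xFLAG are joined to WAGO-1, together with mut-16(cmp41), in which MUT-16 carries mCherry, and the IP used an antibody to GFP. The HRDE-1 strain carried FLAG::hrde-1, and the IP used an antibody to FLAG. Gonads were dissected from gravid adults grown for 68 to 70 h at 20 C, in 3 henn-1(pk2295) and 3 wild type (N2) libraries of small RNAs and as many of mRNAs. The label of the gonad small RNA samples also says that whole worms were frozen, which goes against their stated source. Whole rde-1(ne219) and N2 animals gave 3 libraries oxidized with sodium periodate and 3 untreated libraries each. Periodate attacks the 3′ end of RNAs that lack a terminal methyl group and keeps them out of the library. The descriptions of the oxidized samples say L4 larvae, but their source field says gravid adults of 68 h, where that of the untreated samples says L4 larvae of 52 h. If the source field is right, oxidation and stage cannot be told apart. All small RNA samples were treated with polyphosphatase, which makes the triphosphate end of 22G-RNAs fit for cloning. Whether replicates came from separate cultures is not in the labels, so the p-values rest on library-to-library spread that could be technical.

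Gonad small RNA libraries held 4215134 to 8745279 reads over the listed features, and oxidation libraries held 6311035 to 13613516, as recovered from the deposited values. In gonads, piRNAs took 15.5% to 16.8% of the summed values in henn-1 and 3.17% to 3.47% in wild type. After oxidation, piRNAs took 64.6% to 70.7% in wild type, against 5.47% to 6.47% untreated, and microRNAs took 2.37% to 6.21%, against 43.4% to 50.3% untreated. The henn-1 mRNA itself had 234, 249 and 229 normalised counts in henn-1 gonads, against 2192, 2240 and 2298 in wild type gonads, which checks the labels of the mRNA libraries only. It fell by 3.24 on the log2 scale (limma, adjusted p = 2.4e-10).

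The members include genes of mRNA decay, chromatin, vesicle traffic and the cytoskeleton. The highest value in the WAGO-1 IP belonged to ntl-3, a subunit of the CCR4-NOT deadenylase complex, with 571 ppm in the IP and 243 in the input. W09C3.4 followed with 562 ppm in the IP and 177 in the input. These genes were well above the next ones. The kinase gene sel-5 had 244 ppm in the IP and 98.1 in the input. The next 7 lay between 106 and 128 ppm in the IP, and they were obr-4 (an oxysterol-binding protein), chd-1 (a chromodomain helicase), eipr-1 (a partner of the EARP trafficking complex), apb-1 (a clathrin adaptor subunit), rbr-2 (a histone H3 lysine demethylase), Y39A1A.21 and cnt-1 (an Arf GTPase-activating protein). The sum over all 57 was 4293 ppm in the IP and 1755 in the input.

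Enrichment in the WAGO-1 IP ran over a narrow range. The highest ratios of IP over input were 3.34 for Y39A1A.24, 3.22 for Y67D8C.9, 3.18 for C15H9.4, 3.16 for W09C3.4, 3.04 for C06A5.8 and 2.92 for cls-3 (a CLASP microtubule-binding protein). No member reached 4-fold. At the threshold, Y71H2AM.20 (2.002), hda-4 (2.017) and obr-4 (2.020) lay just inside, and daf-5 (1.9996), eif-3.J (1.997) and Y48G10A.1 (1.984) just outside. The list therefore ends where ratios are nearly continuous, and these values, with 1 library each, have no replicate check. The CSR-1 class as a whole took 12.5% of the WAGO-1 IP and 23.3% of its input, and 1.57% of the class met the rule. Of the members, hda-4 and nrde-3 are listed in the WAGO class as well, and obr-4, ZK686.3 and Y39A1A.24 are also listed as ALG-3/4 loci in the oxidation tables.

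HRDE-1 was not used to choose the members. Their small RNAs were mostly lower in the HRDE-1 IP than in its input, as were those of the rest of the class. Among members the median ratio of IP over input was 0.692, with the middle 50% between 0.569 and 0.918. Among the other CSR-1 class genes the median was 0.535, and among WAGO class genes it was 1.23. Of the 57 members, 12 had a ratio above 1 (21.1%), against a background of 5.67% of the other CSR-1 class genes, 81.4% of WAGO class genes and 36.2% of all rows. None was 2-fold higher in the IP, against 0.0558% of the other CSR-1 class genes and 6.86% of WAGO class genes, and 6 were at least 2-fold lower, against 36.8% and 3.53%. The CSR-1 class took 18.3% of the HRDE-1 IP and 32.1% of its input. When each value was taken per 1000000 of the CSR-1 class alone, 39 members (68.4%) lay above 1 with a median of 1.16, against 35.9% of the other CSR-1 class genes with a median of 0.910. On that scale 8 members were at least 2-fold higher in the IP and 0 at least 2-fold lower, against 111 and 32 of the other 3582. The direction for a typical member therefore turned with the scale. The second scale moves all CSR-1 class genes by nearly the same factor, so it cannot test the members' place among them.

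The highest HRDE-1 ratios belonged to ham-1, nrde-3 and usp-33. For ham-1, which acts in asymmetric divisions of neuroblasts, the IP had 5.35 ppm and the input 2.56, a ratio of 1.78 on small values. For nrde-3, which encodes the nuclear Argonaute of somatic cells, they were 21 and 13.3, a ratio of 1.54. For usp-33, which encodes a ubiquitin-specific protease, they were 14.2 and 9.17, a ratio of 1.49. The other members above 1 were hmbx-1, hda-4, sax-1, arrd-25, mlt-10, tank-1, W09C3.4, W04G3.5 and C15H9.4. Of these, hmbx-1, sax-1, arrd-25, mlt-10, W04G3.5 and C15H9.4 also rest on small values, under 10 ppm in both IP and input. W04G3.5 and C15H9.4 were close to even, with ratios of 1.05 and 1.04. The most abundant member, ntl-3, was nearly even, with 234 ppm in the HRDE-1 IP and 238 in the input. The lowest ratio was that of cls-3, at 0.428. Enrichment in the WAGO-1 IP and in the HRDE-1 IP showed little relation across the members (Spearman's rho 0.08, Pearson's r 0.04 with both ratios in log2, n = 57 genes). The rule cuts the WAGO-1 ratio at 2 and the highest is 3.34. Over so narrow a range these values cannot show how the ratios relate in the class. Each axis rests on 1 library, and genes are not independent replicates.

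**Figure D1:**
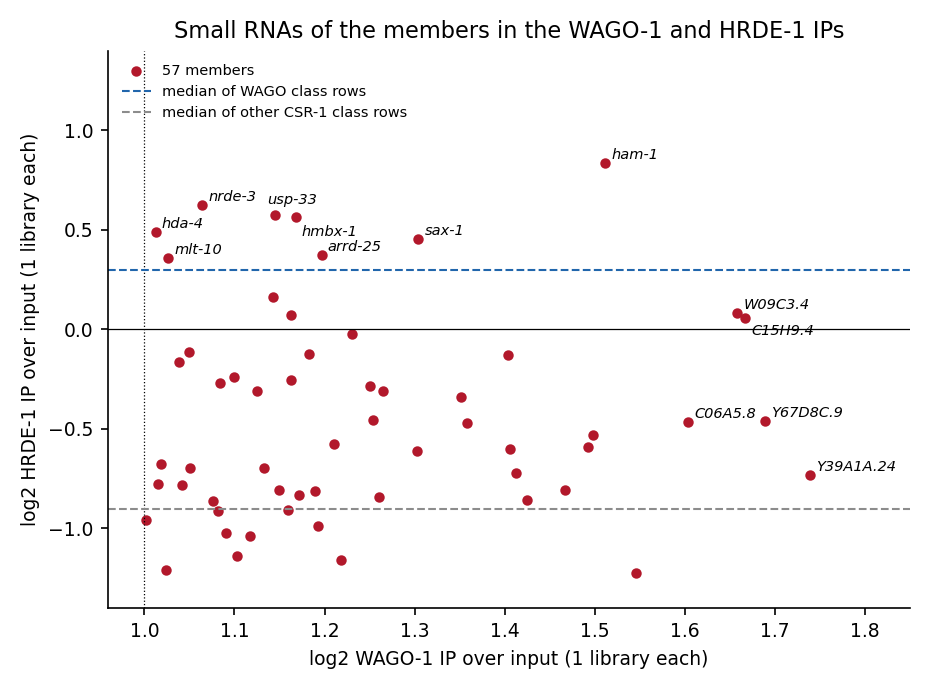
Each of the 57 points is a member, with log2 of the WAGO-1 IP over its input on the horizontal axis and log2 of the HRDE-1 IP over its input on the vertical axis. The dotted line marks the 2-fold threshold of the rule, the dashed lines the medians of WAGO class genes (blue) and of the other CSR-1 class genes (grey), and the 12 points above the solid line have an HRDE-1 ratio above 1.

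Of the 12 members with an HRDE-1 ratio above 1, 7 lay on the X chromosome, by the chromosome that RefSeq (WBcel235) gives for each gene. All 57 members matched that annotation, as did 3522 of the other CSR-1 class genes. Of the members, 9 lay on X (15.8%), against 4.77% of the other CSR-1 class genes, and 16 lay on chromosome III (28.1%), against 22.5%. The 7 on X with a ratio above 1 were hda-4, usp-33, nrde-3, C15H9.4, sax-1 (a kinase of the NDR family), W04G3.5 and arrd-25 (an arrestin-domain protein). C15H9.4, sax-1, W04G3.5 and arrd-25 are among those with small values in both libraries, as given above. The other members on X, apa-2 (a clathrin adaptor subunit) and dhhc-14, had ratios of 0.846 and 0.892. Of the 48 members on autosomes, 5 had a ratio above 1. Among the other CSR-1 class genes, 32.7% of 168 on X and 4.23% of 3354 on autosomes lay above 1. The median ratio was 1.29 for members on X and 0.640 for those on autosomes, against 0.797 and 0.530 for the other CSR-1 class genes.

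The members' place beside WAGO class genes was like that of their class. In RefSeq gene order, 10 of 57 members (17.5%) had a WAGO class gene as an immediate protein-coding neighbour, against 18% of the other CSR-1 class genes. The span of 1 member, Y39A1A.24, overlapped that of a WAGO class gene, which is 1.75%, against 3.41%. A single pair, cnt-1 and Y17G7B.17, were neighbours of each other. Sequences and gene lengths were not used here, so the rankings of genes by level rest on values not corrected for gene length.

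On the deposited scale, the 22G-RNAs of most members stayed close to wild type in gonads lacking HENN-1, and the few that moved went both ways. Under other scalings more members fell than rose, as given below. Of the 57 members, 52 passed the filter of a mean of 10, and 7 were higher and 6 lower (limma on log2 of the value plus 1, adjusted p under 0.05 over all 9455 rows). The background was 42.1% of all rows higher and 15.9% lower, 8.89% and 4.96% of the other CSR-1 class genes, and 11.8% and 55.3% of WAGO class genes. The median log2 change was -0.02 for the members, 0.04 for the other CSR-1 class genes, -0.36 for WAGO class genes and 0.14 for all rows. The 5 members below the filter were arrd-25, ham-1, mlt-10, hmbx-1 and Y67D8C.9. In bulk tissue, fewer cells of a type and less RNA per cell cannot be told apart.

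The largest fall was that of hda-4, a class II histone deacetylase gene that is also listed as a WAGO target. Its 22G-RNAs had 43.1, 48.2 and 41.3 normalised counts in henn-1 gonads, against 83.5, 73.9 and 81.7 in wild type gonads. The groups lay well apart, and the log2 change was -0.84 (SE 0.15, limma, adjusted p = 0.00087). For W09C3.4 the values were 488, 517 and 565 in henn-1 and 884, 813 and 793 in wild type, a log2 change of -0.66 (SE 0.07, limma, adjusted p = 2.8e-05). No henn-1 library reached any wild type one. For ntl-3 they were 763, 692 and 731 in henn-1 and 913, 927 and 863 in wild type, a log2 change of -0.31 (SE 0.06, limma, adjusted p = 0.0018). The most abundant members in the WAGO-1 IP, ntl-3, W09C3.4 and sel-5, were all among the 6 that fell. The IP level was used to choose the members, so this is a description only. The same genes had the highest wild type gonad means (901, 830 and 487 in that order), where small changes are more readily called. B0250.5, with a wild type mean of 170, also changed by -0.31 and was not called.

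The other decreases were smaller. The phosphatase gene ppm-2 averaged 191 ± 11.7 in henn-1 and 239 ± 25.5 in wild type (SD, n = 3 each), and eipr-1 averaged 268 ± 12.6 and 334 ± 38.2 in the same groups. The kinase gene sel-5 had 371, 419.8 and 407 in henn-1 and 499, 527 and 434 in wild type. In each of the 3 the groups did not overlap, with log2 changes from -0.31 to -0.28. The calls of ppm-2, eipr-1 and sel-5 were each lost under 3 of 12 alternatives.

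The largest rise was that of C06A6.2, with 54.1, 65.1 and 68 in henn-1 and 25.6, 37.6 and 32.5 in wild type, a log2 change of 0.96 (SE 0.20, limma, adjusted p = 0.00226). The chromodomain gene cec-2 had 352, 344 and 336 in henn-1 and 209, 236 and 200.5 in wild type, a log2 change of 0.68 (SE 0.09, limma, adjusted p = 6.4e-05). Its henn-1 libraries were tight and far above every wild type one. The tankyrase gene tank-1 had 158, 157 and 156 in henn-1 and 115, 121 and 93.7 in wild type (log2 change 0.52, limma, adjusted p = 0.00382). Smaller rises, with log2 changes between 0.20 and 0.63, were called for cls-3, C37A5.7, har-1 (a small mitochondrial CHCHD-family protein) and mtm-6 (a myotubularin phosphatase), again with no overlap between groups. Among these, C37A5.7 kept its call under 3 of 12 alternatives, har-1 under 6 and cls-3 under 7.

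**Figure D2:**
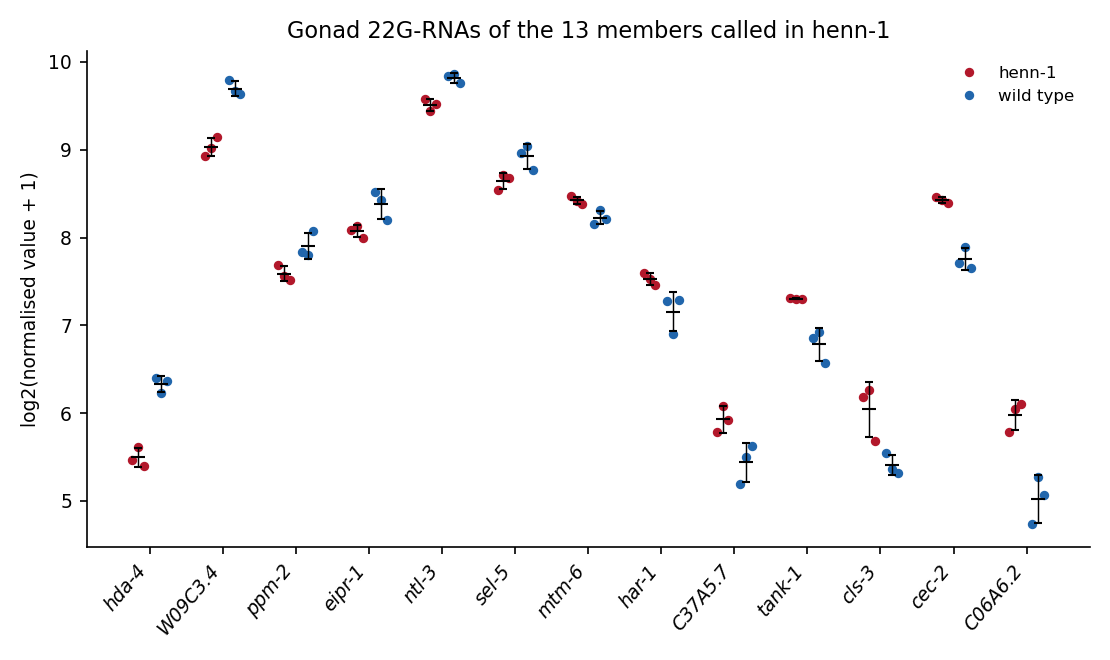
Points are the normalised values, as log2 of the value plus 1, of each henn-1 library (red, left) and each wild type library (blue, right) for the 13 members called in gonads, with the mean and SD as bars (n = 3 each). The 6 members at the left, from hda-4 to sel-5, were lower in henn-1 and the 7 at the right, from mtm-6 to C06A6.2, were higher.

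The share of the CSR-1 class that fell to the members does not depend on the scale between classes. It was 0.475%, 0.480% and 0.465% of the class values in henn-1 gonads, against 0.516%, 0.518% and 0.488% in wild type gonads. The henn-1 libraries were all below the wild type ones. Few loci carried this: the members' mean values summed to 9980 in henn-1 and 10596 in wild type, and without ntl-3, W09C3.4 and sel-5 to 8329 and 8379. The number that rose or fell depended on the scaling. With TMM factors 2 rose and 25 fell, and edgeR's quasi-likelihood test on recovered reads gave 3 and 21. The shares lower were then 48.1% and 40.4% of the 52 members, against 46.3% and 28.4% of the other CSR-1 class genes and 37.3% and 29.3% of all rows. The piRNA share of the libraries moved with the groups, as given above, and its part in these counts was not tested. TMM factors moved the median of all rows from 0.14 to -0.12, of the other CSR-1 class genes to -0.21 and of the members to -0.28. hda-4, W09C3.4, ntl-3, C06A6.2 and cec-2 kept their calls under all 12 alternatives.

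After oxidation of wild type RNA, the members' 22G-RNAs fell steeply. Of the 51 tested, 37 were lower and none was higher (limma, over all 12382 rows tested). At an unadjusted p under 0.05 there were 39, given here without a background. The edgeR test on recovered reads gave 0 members higher and 33 lower, where 4680 of all 12382 rows were higher and 4387 lower. For the limma calls the background was 42.9% of all rows lower and 34.9% higher. It was 91.9% and 0.331% of the other CSR-1 class genes, and 65.8% and 3.53% of WAGO class genes. The median log2 change was -2.19 for members, -2.37 for the other CSR-1 class genes and -0.69 for WAGO class genes. The middle 50% of members lay between -2.53 and -1.25, and that of the other CSR-1 class genes between -2.85 and -1.96. The depth was thin: all 57 members together had 781 to 1386 reads in an oxidized library, against 4370 to 6852 in an untreated one.

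The largest fitted fall was that of Y71H2AM.20, with 0, 6.2 and 0 in oxidized libraries and 38.7, 44.3 and 36 in untreated ones, a log2 change of -4.39 (SE 0.90, limma, adjusted p = 0.00247). The F-box gene fbxa-145 had 0, 7.23 and 0.779 in oxidized libraries and 38.7, 48 and 51.4 in untreated ones, and cnk-1, a scaffold of the Ras pathway, had 10.6, 5.17 and 0 and 55, 70.1 and 88 in the same groups. Their groups were far apart, with log2 changes of -4.25 and -4.09. C56A3.4, gpch-1 and snap-1 (an alpha-SNAP membrane fusion factor) followed with -3.77, -3.66 and -3.45. Of the 37 called members, 11 had an oxidized mean under 10 and passed the filter through the untreated libraries, Y71H2AM.20, fbxa-145, cnk-1, C56A3.4 and snap-1 among them. Their log2 changes rest on the pseudocount, so their sizes and order are not exact. All 37 had oxidized values below every untreated one, and the 6 named here kept their calls under all 12 alternatives. For the 11 with an oxidized mean under 10, neither point adds support, since the untreated libraries carried them past the filter.

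Other members kept more of their reads. cnt-1 averaged 77.4 ± 11.8 in oxidized libraries and 137 ± 13.8 in untreated ones (SD, n = 3 each), the smallest fall among those called (-0.83 on the log2 scale). For ntl-3 the change was -1.10. hda-4 had 10.6, 63 and 13.2 in oxidized libraries and 24.3, 16.6 and 8.8 in untreated ones, and usp-33 had 72.7, 33.1 and 17.9 and 59.5, 36 and 38.2 in the same groups. In both genes the groups overlapped and neither passed the test. Their SEs on the log2 scale were 0.77 and 0.55, which reflect a wide spread between libraries.

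The oxidation values were split by the HRDE-1 ratio. Among the 8 tested members with an HRDE-1 ratio above 1, the median log2 change on oxidation was -0.70 and 2 fell, W09C3.4 and tank-1. These genes had untreated means of 158 and 221, and the others of the 8 ran from 11.6 (nrde-3) to 66.2 (sax-1). Changes of low rows are understated on this scale, and the part of level in this split was not tested. Among the 43 with a ratio of at most 1, the median was -2.29 and 35 fell. Across the 51 members, the HRDE-1 ratio and the change on oxidation had a Spearman's rho of 0.47 and a Pearson's r of 0.53 (the ratio in log2), as a description over genes that share the same libraries. By chromosome, the 7 tested members on X had a median of -0.30 and the 44 on autosomes -2.26, against -1.44 and -2.39 for the other CSR-1 class genes. Most members on X also had an HRDE-1 ratio above 1, so both splits rest largely on the same loci.

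**Figure D3:**
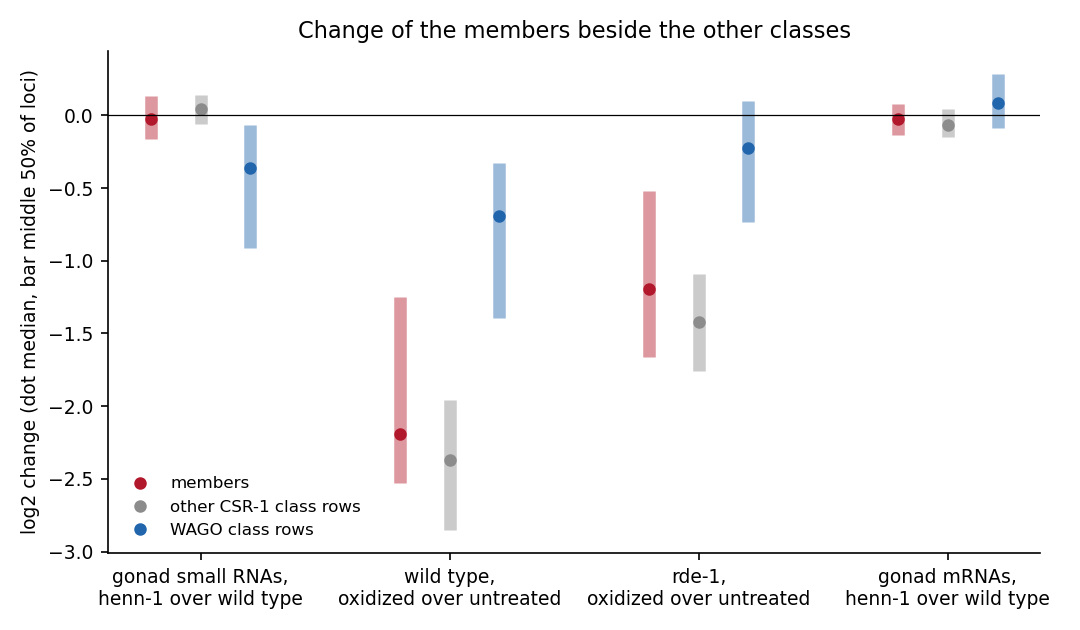
Dots are the median log2 change and bars the middle 50% of tested loci for the members (red), the other CSR-1 class genes (grey) and WAGO class genes (blue) in 4 comparisons. The members' medians lay nearer to those of the other CSR-1 class genes than to those of WAGO class genes in all 4, with values of -2.19 and -2.37 on oxidation in wild type. The shares called are not drawn, and on oxidation a smaller share of members than of the other CSR-1 class genes was called lower in both strains.

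In rde-1 animals most members that changed on oxidation also fell. Of the 51 members tested, 23 were lower and 1 was higher (limma, over 12033 rows). The background was 26% of all rows lower and 31.1% higher, 67.8% and 0.418% of the other CSR-1 class genes, and 23.8% and 6.96% of WAGO class genes. The median log2 change was -1.19 for members, -1.42 for the other CSR-1 class genes and -0.22 for WAGO class genes. The count rested on the untreated libraries: without replicate 3 of untreated rde-1 it was 5 lower, without replicate 2 it was 14 and without replicate 1 it was 15. Of the 23, 21 were also called in wild type.

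The largest falls among called members were those of Y17G7B.3 (-3.08), C56A3.4 (-2.88), W09C3.4 (-2.56), Y71H2AM.20 (-2.30), ppm-2 (-2.12) and chd-1 (-1.81), as log2 changes. Y17G7B.3 and C56A3.4 had oxidized means of 6.69 and 4.98 and passed the filter through the untreated libraries. Their sizes rest on the pseudocount, and so does their place in this order. The call of C56A3.4 was lost under 7 of 12 alternatives. W09C3.4 had 25.1, 14 and 71.8 in oxidized rde-1 libraries and 132, 164 and 263 in untreated ones (SE 0.60, limma, adjusted p = 0.00671). Y17G7B.3 had 8.7, 10.5 and 0.855 in oxidized and 31.1, 64.4 and 59.1 in untreated libraries, and in wild type it had 31.9, 23.8 and 9.34 oxidized and 25.2, 34.1 and 45.5 untreated. Its groups were separate in rde-1 and overlapped in wild type. nrde-3 was read 0 times in all 3 oxidized rde-1 libraries, where a count of 0 allows up to 3 reads each, against 9.76, 10.7 and 7.14 in untreated ones, which is below the filter.

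The member that was higher was usp-33. It had 102, 117 and 78.7 in oxidized rde-1 libraries and 39.9, 43 and 39.6 in untreated ones, and every oxidized library was above every untreated one. The log2 change was 1.24 (SE 0.39, limma, adjusted p = 0.0241), and the call was lost under 5 of 12 alternatives, among them library totals. hda-4 had 40.6, 16.3 and 15.4 oxidized and 21.3, 1.53 and 12.3 untreated, with overlap and no call. Both genes are on X and had an HRDE-1 ratio above 1.

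The difference between the strains was tested as the oxidation effect in rde-1 minus that in wild type. None of the 50 members tested passed (limma, over 11609 rows), where 0.0345% of all rows were called. At an unadjusted p under 0.05 there were 13 members, given here without a background. The median difference was 0.91 for members, 0.93 for the other CSR-1 class genes, 0.45 for WAGO class genes and 0.48 for all rows. The smallest p among members was that of nsun-5, an rRNA methyltransferase gene, with a difference of 1.60 (SE 0.50, limma, adjusted p = 0.19). It was named after its value was seen.

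**Figure D4:**
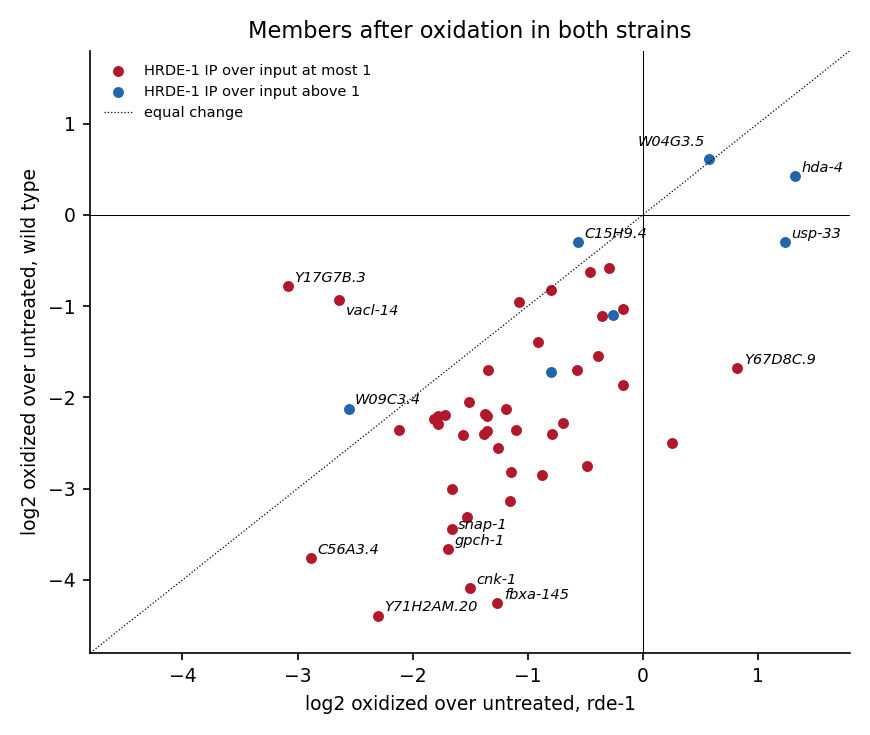
Each point is 1 of the 50 members tested in both strains, with the log2 change on oxidation in rde-1 on the horizontal axis and in wild type on the vertical axis, blue where the HRDE-1 ratio was above 1. Most points lie under the dotted line of equal change, which means a deeper fall in wild type, and usp-33 and hda-4 are at the right.

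Set against wild type in ppm of all listed small RNAs, the members' 22G-RNAs in untreated rde-1 animals overlapped those of wild type at most members. The tables of the strains were normalized apart, so no test was run. Of the 52 members with at least 1 ppm, the groups did not overlap in 3, all higher in rde-1, against a background of 11% of all rows higher and 12.4% lower, and 12.5% of the other CSR-1 class genes higher and 1.84% lower. The median log2 difference was 0.24, against 0.37 for the other CSR-1 class genes and -0.10 for WAGO class genes. It was -0.01 without replicate 3 of untreated rde-1, whose CSR-1 share was the highest at 16.9%, 0.10 without wild type replicate 1, and 0.36 without rde-1 replicate 1 or wild type replicate 3. The 3 were har-1, with 5.82, 15.4 and 9.92 ppm in rde-1 and 4.31, 4.68 and 5.3 in wild type, Y71H2AM.20, with 5.55, 7.76 and 7.49 and 3.5, 4.4 and 3.71 in the same order, and tank-1, with 25.8, 24.2 and 32 and 19, 22.3 and 23.6. These are small shifts on few reads. Leaving out rde-1 replicate 1, rde-1 replicate 2, wild type replicate 1 or wild type replicate 3 gave 16, 6, 5 and 12 members higher. With a library left out, groups can only lose overlap, so such counts can stay or rise and never fall. The background under the same choices was not computed, so no conclusion is drawn from these rises.

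Among oxidized libraries more members were apart. Of 48 with at least 1 ppm, 15 were higher in rde-1 and 1 was lower, with a background of 19.9% of all rows higher and 8.9% lower, and 46.6% of the other CSR-1 class genes higher and 0.391% lower. The largest differences were those of har-1, with 6.11, 5.91 and 2.36 ppm in rde-1 and 0.773, 0.406 and 0.535 in wild type, of lig-4 (DNA ligase IV), with 3.81, 4.73 and 6.77 and 1.08, 0.61 and 0.841 in the same order, and of cnk-1, with 1.42, 2.96 and 6.52 and 0.927, 0.508 and 0. Their wild type means were 0.572, 0.844 and 0.478 ppm, so they met the minimum of 1 ppm through rde-1. C06A6.2, cls-3, fbxa-145 and Y67D8C.9, also among the 15, had wild type means of 0.561, 0.901, 0.263 and 0.459 ppm. They met the minimum in the same way, so the count of 15 rests in part on the filter. The sizes and order of all these differences rest on few reads and on the pseudocount. Y17G7B.3 was the lower one, with 0.797, 0.887 and 0.0815 in rde-1 and 2.78, 2.34 and 0.918 in wild type, and it met the minimum through wild type. The count depended on what the values were taken against: in ppm of the microRNAs 2 were higher and 2 lower, and in ppm of the CSR-1 class 4 were higher and 5 lower. The background on these scales was not computed, so these counts cannot place the members beside their class. Leaving out wild type replicate 2 gave 24 higher, a count that, as above, could not have fallen.

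The mRNAs of the members were present in gonads and changed little without HENN-1. Of the 55 tested, 4 were higher and 8 lower (limma, over 8750 rows), with a background of 7.44% of all rows higher and 12.4% lower, 4.91% and 23.7% of the other CSR-1 class genes, and 8.7% and 4.85% of WAGO class genes. The median log2 change was -0.03 for members, -0.06 for the other CSR-1 class genes, 0.08 for WAGO class genes and 0.02 for all rows. The 2 members below the filter were ham-1 and hmbx-1, and ham-1 had 0, 0 and 1.92 normalised counts in henn-1 and 0.972, 0 and 1.08 in wild type.

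The increases were led by genes on X. hda-4 had 60.2, 53.4 and 63.7 in henn-1 gonads and 43.3, 35.3 and 32 in wild type gonads, a log2 change of 0.67 (SE 0.19, limma, adjusted p = 0.0351). arrd-25 had 119.7, 106 and 109.6 in henn-1 and 63.2, 61.5 and 88.6 in wild type, a log2 change of 0.66 (SE 0.16, limma, adjusted p = 0.02). In both, every henn-1 library was above every wild type one. usp-33 had 415, 358 and 404 in henn-1 and 329.6, 333 and 288 in wild type (log2 change 0.31, limma, adjusted p = 0.0303). The remaining one, trmt-10C.1, a tRNA methyltransferase homolog on an autosome, had 778, 777 and 814 in henn-1 and 734, 681 and 680.5 in wild type. The calls of hda-4 and trmt-10C.1 were lost under 8 of 12 alternatives, and those of arrd-25 and usp-33 under 5. The median over the 9 members on X was 0.09 and over the 46 tested on autosomes -0.06, against 0.06 and -0.07 for the other CSR-1 class genes.

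The decreases were small and even. oxi-1, a HECT-type ubiquitin ligase gene, had 1989, 1901 and 1810 in henn-1 and 2087, 2256 and 2373 in wild type, a log2 change of -0.24 (SE 0.05, limma, adjusted p = 0.0169). cnk-1 had 525, 505 and 493 in henn-1 and 605, 581 and 597 in wild type (log2 change -0.23), and B0511.12 had 3486, 3428 and 3380 and 3820, 3844 and 3932 in the same groups (log2 change -0.17). The groups were apart in all 3. W02D7.6, lig-4, chd-1, sel-5 and obr-4 also fell, with log2 changes from -0.17 to -0.15. Of 12 alternatives, the calls of W02D7.6 and lig-4 were lost under 9 and that of chd-1 under 8. nrde-3, the only member in the fixed list of 22G-RNA pathway genes, had 539.6, 528 and 530.5 in henn-1 and 556, 508 and 516 in wild type, with overlap.

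These calls depended on single libraries. Leaving out wild type replicate 3 or henn-1 replicate 2 left 1 higher and 1 lower, leaving out wild type replicate 2 left 0 and 4, leaving out henn-1 replicate 1 or 3 left 2 and 6 or 3 and 5, and leaving out wild type replicate 1 gave 3 and 12. Library totals gave 8 higher and 3 lower. Other cells' transcripts differed between libraries: sperm marker genes summed to 1494, 792 and 3439 in henn-1 and to 582, 1903 and 571 in wild type, with none of 36 called. Muscle markers summed to 5139, 4902 and 5747 in henn-1 and to 4359, 4229 and 4407 in wild type, and 10 of 14 were higher. Without the libraries richest in sperm transcripts, henn-1 replicate 3 and wild type replicate 2, 0 members were higher and 2 lower. The part of other cells in the members' changes was not tested. Of the germline list 10 of 22 were lower and of the oocyte list 12 of 23 lower and 1 higher, and none of 3 intestine, 4 epidermis and 5 neuron genes tested was called.

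Set side by side, 22G-RNA and mRNA of the members showed little relation in henn-1 gonads. Over 52 members the log2 changes had a Spearman's rho of 0.04 and a Pearson's r of -0.08, as a description across genes. Of the 7 with more 22G-RNAs, no mRNA was called. Of the 6 with fewer, the mRNA of hda-4 rose, that of sel-5 fell, and those of 4 were not called, among them W09C3.4 with 1641, 1763 and 1762 in henn-1 and 1533, 1573 and 1610 in wild type (limma, adjusted p = 0.0615). The mRNA call of hda-4 in this pairing was lost under 8 of 12 alternatives.

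**Figure D5:**
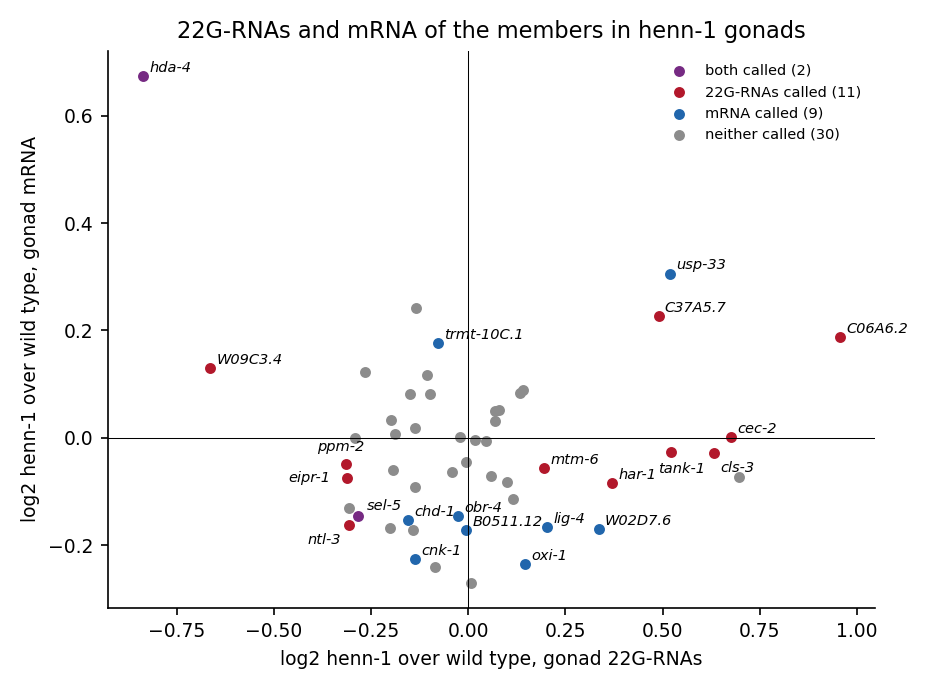
Each of the 52 points is a member tested in both tables, with the log2 change of its 22G-RNAs in henn-1 gonads on the horizontal axis and of its mRNA on the vertical axis. Only hda-4, at the upper left, and sel-5, at the lower left, were called in both.

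The genes that make and bind 22G-RNAs were themselves mostly level or lower in henn-1 gonads. Of 47 tested genes of the 22G-RNA pathway list, which holds henn-1 itself, 17 were lower and none higher. Of 19 P granule genes, 10 were lower and none higher. Among all mRNA rows 12.4% were lower, and of the germline and oocyte lists 10 of 22 and 12 of 23 were lower, as given above. rde-11, which acts in RNA interference, had 412, 409 and 403 in henn-1 and 639.7, 646 and 646 in wild type (log2 change -0.66, limma, adjusted p = 0.0001), and sid-1, a channel for double-stranded RNA, had 731, 664 and 727 and 921, 1021 and 975 in the same groups (log2 change -0.46). Both were clearly apart. wago-1 itself had 27814, 25828 and 25516 in henn-1 and 29831, 31408 and 31381 in wild type, a log2 change of -0.23 (limma, adjusted p = 0.0127). The P granule genes pgl-3 and znfx-1 changed by -0.28 and -0.25 on the log2 scale. The lists share some genes, and their medians were -0.10 and -0.15, against 0.02 for all rows.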

How the data were processed

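Small RNAs and mRNAs were measured by sequencing. The small RNA signal of gonads and of the oxidation set was deposited as counts divided by a size factor, since every value is a whole multiple of 1 step per library (tolerance 0.1), and DESeq2 1.18.1 is named per the submitters' processing notes. The gonad mRNA signal was deposited as normalised estimated counts, and those notes name RSEM 1.3.0, the aligner STAR 2.5.0a, the trimmer Trimmomatic 0.35 and again DESeq2, and its depth is not known here. The IP signal was deposited with scale and processing not given in the sources used here, with column totals of 511291 to 678659, and the authors' IP over input ratio column was not used. Those sources state neither the genome build nor the small RNA aligner.

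IP values were brought to ppm of the column total, and ratios used a pseudocount of 1. Elsewhere log2(value + 1), for rows with a mean of at least 10, was fitted with limma 3.58.1 (trend) in R 4.3.3 on the groups compared, with Benjamini-Hochberg adjustment over all rows and a threshold of 0.05. Fold changes on that scale understate those of low rows. Strains were set side by side in ppm (mean of at least 1, no test), as their tables were normalized separately. The fits were tested on simulated data. As an alternative, edgeR 4.0.16 was run on the recovered reads: 100% of values came out whole, and it called 6318 of 9455 rows in gonads, 9067 of 12382 on oxidation in wild type and 6236 of 12033 in rde-1. Other alternatives were TMM factors, library totals, a pseudocount of 5, no filter, a replicate block, each library left out, and other member rules. The members, gene lists and the rule for named genes were chosen with earlier results of these data known. Named were the members highest in IP level and enrichment, those nearest the threshold, the 6 largest called changes each way per test, the 3 largest each way between strains, and up to 3 genes per pathway list. The splits by chromosome and HRDE-1 ratio, and apa-2, dhhc-14, mtm-6 and nsun-5 outside that rule, were chosen after their values were seen. Planned levels per coding length were not computed, as lengths were not used here.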

Additional observations from a re-analysis of the deposited data

How the results depend on the processing

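The member list rests on its thresholds. A WAGO-1 IP of at least 50 ppm left 29 members, unscaled values gave 127, of which 52 were in the list of 57, and an enrichment of at least 4 left 0, so no values follow from it. With the 29, 4 had an HRDE-1 ratio above 1. In henn-1 gonads 3 of them had more 22G-RNAs and 6 fewer, with a median log2 change of -0.14, and the mRNA median was -0.0825. On oxidation in wild type 24 fell, and between strains 1 was higher in untreated rde-1, and 8 higher and 0 lower in oxidized rde-1. With the 127, 15 rose and 16 fell in gonad 22G-RNAs, 99 fell on oxidation in wild type, 2 rose and 55 fell in rde-1, and 9 rose and 22 fell in mRNA (median -0.0617). Between strains 12 were higher and 4 lower untreated, and 38 and 2 oxidized. The shares of all rows are those given above for each comparison. The numbers tested in the lists of 29 and 127 are not given here, so no conclusion is drawn from these counts.

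Scaling moved further values. Taken per 1000000 of the CSR-1 class, the HRDE-1 ratio had a median of 1.16 with 39 above 1, untreated rde-1 had 1 member higher and 7 lower (median -0.09), and oxidized rde-1 4 and 5 (median 0.11). Against microRNAs, 1 was higher untreated, and 2 higher and 2 lower oxidized (median 0.0223). No background was computed for these counts between strains. In gonad 22G-RNAs, TMM factors gave 2 higher and 25 lower (median -0.28), library totals 4 and 12 (-0.11), and edgeR on recovered reads 3 and 21 (-0.22). On oxidation in wild type the median was -1.87 with a pseudocount of 5 and -1.88 with edgeR. In rde-1, library totals left 0 higher. A pseudocount of 5 gave a median of 0.30 between oxidized strains. For mRNA, library totals gave 8 higher and 3 lower (median 0.0082), no filter 2 and 4, and leaving out the libraries richest in sperm transcripts 0 and 2. That choice, edgeR, and leaving out the members also listed as WAGO, which moved no count by over 1.5 times, were added after seeing the data.

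Leaving out each library in turn gave 3 to 6 higher and 4 to 6 lower in gonad 22G-RNAs (median -0.05 to 0.0011). It gave 0 higher and 31 to 39 lower on oxidation in wild type (-2.34 to -1.89), 0 to 1 higher and 5 to 20 lower in rde-1 (-1.32 to -1.09), and 0 to 3 higher and 1 to 12 lower in mRNA (-0.0656 to -0.0140). The difference between strains kept 0 calls, with a median of 0.74 to 1.10. Between strains, 3 to 16 were higher and 0 to 4 lower untreated (-0.01 to 0.36), and 17 to 24 higher and 1 to 2 lower oxidized (0.60 to 0.74). These counts of groups without overlap can only stay or rise when a library is left out.

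With the replicate number as a block, 5 rose and 6 fell in gonad 22G-RNAs, 0 and 36 on oxidation in wild type, 1 and 24 in rde-1, and 3 and 5 in mRNA, with 0 calls for the difference. Samples of the same number shared deviations of r = -0.605 to 0.214 over the 4 tables, so the numbers were not taken as pairs. On oxidation in wild type each library correlated best with its own number, at r of 0.027 to 0.059, which is a hint from the data and not the design. Of 420 values of single named genes under these alternatives, 315 kept direction and call, 105 kept direction but lost the call, and 0 turned. The causes of these shifts were not tested. The members had few reads in oxidized libraries, and the IPs, with 1 library each, have no replicate error.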
